A study of Mus musculus with 4 samples.

Results

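Chromatin accessibility was examined at 58 genes that encode Polycomb proteins, DNA methylation enzymes, SWI/SNF remodellers, MLL-type methyltransferases with acetyltransferases, and CTCF with cohesin, in mouse long-term haematopoietic stem cells (LT-HSCs) with and without Sin3B. The 58 genes were picked by symbol, and a peak was counted as theirs when the deposited table of differential ATAC-Seq peaks gave that symbol. The table held 5332 peaks, of which 24 carried the symbol of 15 of the 58 genes. The other 43 genes had no row in the table used here, which does not show that they lack a differential peak. ATAC-Seq cuts and tags open DNA with a transposase, so the number of reads in a peak measures how open that stretch of chromatin was. Both groups were C57BL/6 mice carrying a floxed Sin3B gene, with the Vav1-iCre transgene in the Sin3B-/- group only, and the labels named them WT and KO. Vav1-iCre acts throughout the blood system, so the deletion was not limited to the stem cells. LT-HSCs were sorted as L-S+K+Flk2-CD48-CD150+ bone marrow cells, and each of the 4 libraries (2 Sin3B+/+ and 2 Sin3B-/-) pooled the cells of 2 mice. The age of these mice was not given in the labels.

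Sin3B is a scaffold protein of histone deacetylase complexes that repress transcription. The genes studied here act on chromatin in other ways. Polycomb complexes repress genes by placing methyl groups on histone H3 lysine 27 and ubiquitin on histone H2A. Dnmt enzymes methylate DNA at CpG sites, and Tet enzymes oxidize that mark. SWI/SNF complexes slide or evict nucleosomes, MLL-type enzymes and the acetyltransferases mark active promoters and enhancers, and CTCF and cohesin fold the genome into loops. Several of these genes, among them Dnmt3a, Tet2 and Asxl1, are known for mutations in clonal haematopoiesis.

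All 24 peaks were more open in Sin3B-/- LT-HSCs, and in each of them both Sin3B-/- libraries lay above both Sin3B+/+ libraries. This was the direction of most of the table, since 95.7% of its 5332 peaks were higher without overlap between the genotypes. The table was deposited after a selection for differences between these same libraries, so the calls describe the peaks and are no independent test. By limma on log2(level + 1), with Benjamini-Hochberg adjustment over the 5332 peaks, 5103 peaks (95.7%) were called higher and 229 (4.29%) lower, and the 24 member peaks were called higher with adjusted p between 2.68e-11 and 0.00981. None was called lower. The direction is relative to the authors' scaling of the libraries. Values were whole-number multiples of 0.228 and 0.343 in the Sin3B+/+ libraries and of 0.625 and 1 in the Sin3B-/- libraries, so 1 read counted for more in Sin3B-/-, and the part of this scaling in the changes was examined only by centring each library. The median log2 ratio of group means was 0.82 over the 24 peaks and 0.76 over the whole table. Peaks differed from each other mainly in the size of the change, from 0.57 to 1.54 on the log2 scale, and each change is given here beside that shift of 0.76. When each library was centred on its own median, limma called 374 peaks higher (7.01%) and 229 lower (4.29%), and 4 of the 24 member peaks were called higher. These 4 were in Ezh1 intron 1, Dot1l introns 1 and 7, and Setd2 intron 19. The centred calls rest on the same selected peaks and are likewise no independent test.

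The stretch with the largest change is shown here for 4 of the groups so that its base composition can be read directly. The sequences are from the forward strand of GRCm38, 300 bases around the peak centre, with CpG dinucleotides in capitals. The Tet3 stretch was shortened to 221 bases to leave out an exon.
Ezh1 intron 1, chr11:101221409-101221708: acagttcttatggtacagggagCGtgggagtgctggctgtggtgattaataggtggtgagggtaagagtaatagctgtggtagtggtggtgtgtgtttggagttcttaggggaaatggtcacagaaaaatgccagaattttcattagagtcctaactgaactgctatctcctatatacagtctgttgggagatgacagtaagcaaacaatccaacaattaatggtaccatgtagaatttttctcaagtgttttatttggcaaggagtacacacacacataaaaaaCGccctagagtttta
Tet3 intron 1, chr6:83455481-83455701: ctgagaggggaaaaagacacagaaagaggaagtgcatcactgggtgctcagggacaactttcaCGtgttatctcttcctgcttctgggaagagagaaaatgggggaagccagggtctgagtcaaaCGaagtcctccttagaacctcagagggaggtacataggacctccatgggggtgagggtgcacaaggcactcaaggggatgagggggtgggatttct
Arid1b intron 4, chr17:5138790-5139089: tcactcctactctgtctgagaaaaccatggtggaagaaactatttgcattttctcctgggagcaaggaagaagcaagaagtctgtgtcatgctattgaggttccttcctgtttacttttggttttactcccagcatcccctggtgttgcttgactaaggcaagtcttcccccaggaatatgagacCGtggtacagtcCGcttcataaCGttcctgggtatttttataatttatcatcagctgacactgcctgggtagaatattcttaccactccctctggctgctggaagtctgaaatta
Setd2 intron 19, chr9:110617127-110617426: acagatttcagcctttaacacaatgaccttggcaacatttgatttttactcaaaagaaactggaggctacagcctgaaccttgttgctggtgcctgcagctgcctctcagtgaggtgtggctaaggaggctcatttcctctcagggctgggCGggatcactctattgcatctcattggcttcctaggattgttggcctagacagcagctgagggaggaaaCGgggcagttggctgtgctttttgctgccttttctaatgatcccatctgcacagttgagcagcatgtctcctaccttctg
These stretches held only 2 (Ezh1), 2 (Tet3), 3 (Arid1b) and 2 (Setd2) CpGs. Over the 24 windows of 300 bases the median ratio of observed to expected CpGs was 0.219, against 0.359 over the windows of all 5332 peaks, and the median GC content was 54.3% against 54.0%. The ratio was highest at Kdm6b (0.71, in the larger of its peaks), Asxl2 (0.66), Smarca2 (0.63) and Ep300 (0.61).

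Most of the peaks lay inside genes and away from promoters. The centres of 75% of the 24 peaks lay inside a gene, compared with 65.8% of the table. The centres of 17 peaks fell in an intron of the longest coding transcript, 8 of them in intron 1, 1 fell in a 3′ UTR, and 6 fell outside that transcript. Only 3 of the 24 (12.5%) had their centre between 1000 bp upstream and 100 bp downstream of a transcription start site (TSS) of the same gene, compared with 28.6% of the table. These 3 were at Ep300, Arid1a and Smarca2. In 11 peaks the nearest annotated TSS belonged to another gene, so the gene symbol in those rows does not name the closest start.

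**Figure D1:**
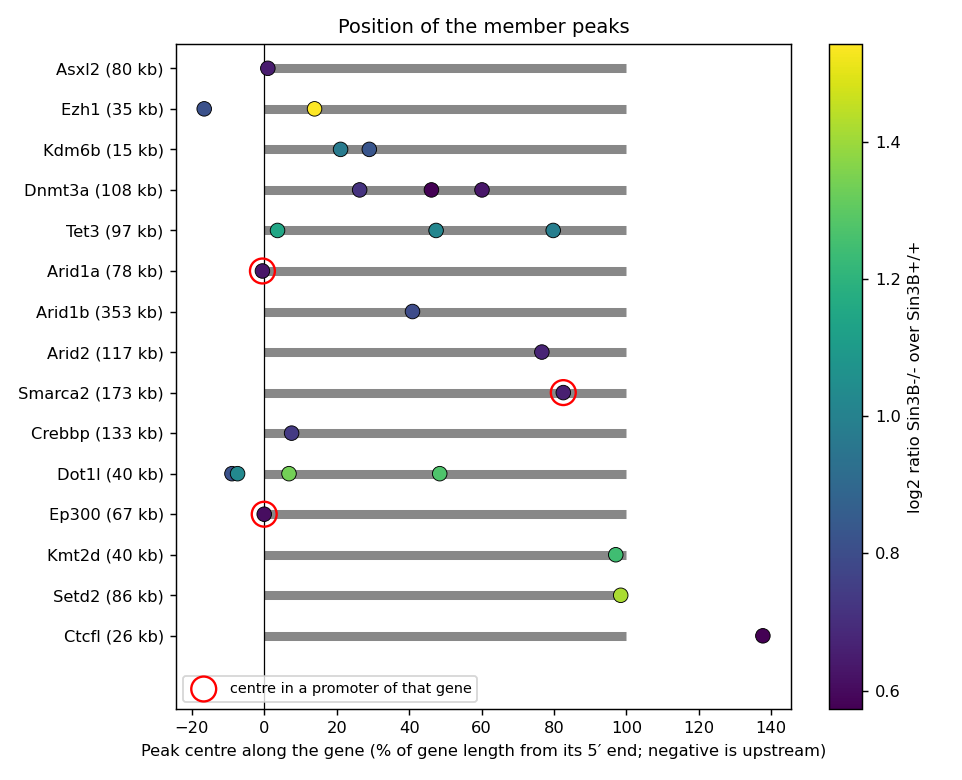
Position of the 24 peak centres along 15 genes, in percent of gene length from the 5′ end (horizontal axis), with colour giving the log2 ratio of Sin3B-/- over Sin3B+/+ and red rings marking the 3 centres in a promoter of that gene. Of the 24 points, 18 lie on the grey gene bodies, and the highest ratio (1.54) is at Ezh1 in intron 1.

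Of the 17 Polycomb genes, 3 had peaks (17.6%), namely Ezh1, Kdm6b and Asxl2, with 5 peaks in all. Over all protein-coding genes of GENCODE M21, 15.7% had at least 1 peak in the table. Ezh1, the alternative catalytic subunit of Polycomb repressive complex 2 and the one common in resting cells, had the largest change of all 24 peaks. Its peak at chr11:101221294-101221822, in intron 1 and 4868 bp downstream of the nearest start, measured 97.4 and 98.7 in the Sin3B+/+ libraries and 311 and 261 in the Sin3B-/- libraries, in normalized reads. The Sin3B+/+ pair was nearly identical, and the lower Sin3B-/- library was still well above it. The log2 ratio was 1.54 with a limma SE of 0.22, and it was larger than in 96.3% of the peaks that were higher in Sin3B-/-. After centring it was 0.78 ± 0.16 (SE, adjusted p = 0.0171 by limma). A further Ezh1 peak, 5865 bp upstream of the gene, read 137 and 100 in Sin3B+/+ and 189 and 228 in Sin3B-/-, a log2 ratio of 0.82, close to the median of the table. The intron peak thus stood 0.73 log2 units above the upstream peak of the same gene.

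Kdm6b, a demethylase that removes the Polycomb mark from histone H3, had 2 peaks in intron 1, separated by 312 bp. The larger, chr11:69408528-69410025, read 577 and 516 in Sin3B+/+ and 1013 and 931 in Sin3B-/- (log2 ratio 0.83). The smaller, chr11:69410338-69410623, read 75.5 and 60.3 in Sin3B+/+ and 152 and 114 in Sin3B-/- (log2 ratio 0.97). Both were separated by genotype, and the pair changed by amounts that differed by less than the SE of 0.22. At Asxl2, whose product assists the Polycomb deubiquitinase, the peak lay in intron 1, 739 bp past a start of Asxl2 and 629 bp upstream of the divergent gene 1110002L01Rik. Its levels measured 228 and 186 in Sin3B+/+ and 299 and 350 in Sin3B-/- (log2 ratio 0.65), which was below the median of the table. The other 14 Polycomb genes had no row, and these were the catalytic and core genes Ezh2, Suz12 and Eed, the recruiting gene Jarid2, the chromobox genes Cbx2, Cbx7 and Cbx8, the ring finger genes Bmi1, Pcgf1, Pcgf5 and Ring1, and also Asxl1, Kdm6a and Kdm2b. Ezh2, the paralog of Ezh1, lay 383490 bp from the closest peak of the table.

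**Figure D2:**
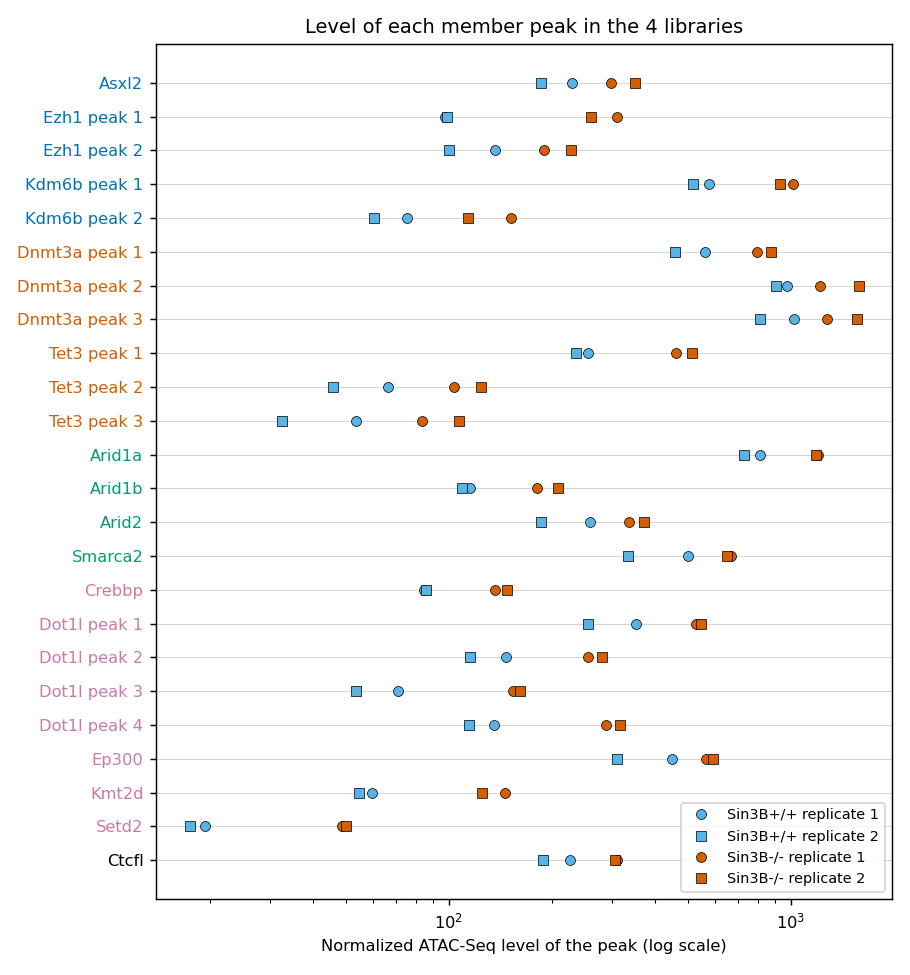
Normalized ATAC-Seq level (log scale, horizontal axis) of the 24 member peaks, with circles for replicate 1, squares for replicate 2, blue for Sin3B+/+ and orange for Sin3B-/-. Peaks of a gene are numbered by position, and in each row both orange points lie to the right of both blue points.

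Among the 6 DNA methylation genes, Dnmt3a and Tet3 had 3 peaks each, and Dnmt1, Dnmt3b, Tet1 and Tet2 had none. Dnmt3a, the de novo methyltransferase that restrains self-renewal of stem cells, held the peaks with the highest level per length among the 24. The peak in intron 3 (chr12:3855642-3856469) read 972 and 904 in Sin3B+/+ and 1211 and 1580 in Sin3B-/-. In intron 4 (chr12:3870790-3871598) the levels measured 1018 and 813 in Sin3B+/+ and 1275 and 1562 in Sin3B-/-. Both reached about the same mean level per kb over the 4 libraries, 1409 and 1442, against a median of 428 over the 24 peaks. Their log2 ratios, 0.57 and 0.63, were among the lower ones, and their nearest annotated start was that of the antisense gene Dnmt3aos. The peak in intron 1 (chr12:3833817-3835308) read 559 and 458 in Sin3B+/+ and 794 and 876 in Sin3B-/- (log2 ratio 0.71). All 3 Dnmt3a ratios lay below the table's median of 0.76.

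Tet3, a dioxygenase that oxidizes methylcytosine, showed larger ratios than Dnmt3a in each of its 3 peaks. The peak in intron 1 (chr6:83455356-83455746), 841 bp downstream of the start of transcript Tet3-203, read 53.6 and 32.6 in Sin3B+/+ and 83.7 and 107 in Sin3B-/- (log2 ratio 1.15). In intron 3 (chr6:83412960-83413449) the levels measured 66.4 and 45.9 in Sin3B+/+ and 104 and 124 in Sin3B-/- (log2 ratio 1.02). These 2 peaks were low, and of the 3 Tet3 peaks they had the larger spread between the Sin3B+/+ replicates. The ratio of the intron 1 peak moved to 0.83 when Sin3B+/+ replicate 2 was left out and to 1.55 when it was Sin3B+/+ replicate 1. The peak in intron 5 (chr6:83381569-83382296) varied least of the 3, with 255 and 236 in Sin3B+/+ and 460 and 512 in Sin3B-/- (log2 ratio 0.99, 0.91 to 1.06 with single libraries left out). No Tet3 peak was called after centring, where the intron 5 peak had an adjusted p of 0.34 by limma.

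SWI/SNF subunits had the smallest range of change among the groups with several peaks, with 4 peaks at 4 of 10 genes and log2 ratios from 0.63 to 0.79. Arid1a, Arid1b and Arid2 encode the large DNA-binding subunits that set apart the forms of the complex. The Arid1a peak (chr4:133756539-133757803) was centred 402 bp upstream of the gene's start and read 814 and 728 in Sin3B+/+ and 1198 and 1184 in Sin3B-/- (log2 ratio 0.63). Arid1b had its peak in intron 4 (chr17:5138599-5139280), 142518 bp from its nearest start, at 115 and 109 in Sin3B+/+ and 181 and 208 in Sin3B-/- (log2 ratio 0.79). At Arid2 the peak was in intron 15 (chr15:96377206-96377915), with 259 and 186 in Sin3B+/+ and 336 and 372 in Sin3B-/- (log2 ratio 0.67). Each of these 3 peaks was close to the shift of the table. Of the ATPase genes, Smarca2 had a peak and Smarca4 had none.

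The Smarca2 peak (chr19:26747636-26748604) appears deep inside the gene, 143070 bp past its first base and in intron 27 of its longest coding transcript. Its centre was, however, only 131 bp upstream of the start of the short transcript Smarca2-204, so it counted as a promoter peak by position. Activity of this internal start was not tested. The sequence up to that start, selected after the values were seen, is shown with CpGs in capitals.
Smarca2-204 promoter, chr19:26747971-26748250: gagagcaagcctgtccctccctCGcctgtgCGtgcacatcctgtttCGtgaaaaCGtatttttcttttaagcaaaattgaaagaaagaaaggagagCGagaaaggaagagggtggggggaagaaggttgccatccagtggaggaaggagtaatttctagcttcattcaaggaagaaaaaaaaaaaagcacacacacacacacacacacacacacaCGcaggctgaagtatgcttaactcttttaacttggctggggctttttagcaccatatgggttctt
It holds 6 CpGs in 280 bases and a CA repeat. Smarca2 levels measured 501 and 334 in Sin3B+/+ and 669 and 649 in Sin3B-/- (log2 ratio 0.66). The Sin3B+/+ replicates were far apart, and without Sin3B+/+ replicate 2 the ratio was 0.40 and no longer called by limma. Smarcb1, Smarcc1, Smarcd1, Smarcd2 and Pbrm1 also had no row.

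The MLL and acetyltransferase group had the most peaks, 8 at 5 of 14 genes, and the largest median log2 ratio, 1.14. Its median level was the lowest among the groups, 157 against 263 over the table. Dot1l, the methyltransferase of histone H3 lysine 79, accounted for 4 of the 8 peaks and changed more inside the gene than upstream. In intron 1 (chr10:80757769-80758135), 2746 bp past the start, the levels measured 71.2 and 53.5 in Sin3B+/+ and 154 and 161 in Sin3B-/- (log2 ratio 1.34). In intron 7 (chr10:80774398-80775017) they measured 136 and 115 in Sin3B+/+ and 288 and 317 in Sin3B-/- (log2 ratio 1.27). After centring these 2 peaks were higher by 0.58 ± 0.12 and 0.51 ± 0.11 (SE, adjusted p = 0.0173 and 0.0233 by limma). The upstream pair, 86 bp apart and 3594 and 2971 bp before the start, had log2 ratios of 0.82 and 1.03. Levels at the first measured 353 and 256 in Sin3B+/+ and 528 and 544 in Sin3B-/-, and at the second 147 and 116 in Sin3B+/+ and 255 and 281 in Sin3B-/-.

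Setd2, which trimethylates histone H3 lysine 36 along transcribed genes, had the second largest ratio of the 24 at the lowest level. Its peak in intron 19 (chr9:110617125-110617428), 98.4% of the way along the gene, read 19.4 and 17.5 in Sin3B+/+ and 48.7 and 50 in Sin3B-/-. The log2 ratio was 1.42, and after centring it was 0.62 ± 0.12 (SE, adjusted p = 0.0113 by limma). The mean level of this peak was at the 1.01 percentile of the table. In the lowest quartile of level, the median log2 ratio of the peaks higher in Sin3B-/- was 1.13. Kmt2d, an enhancer methyltransferase, had its peak at the far end of the gene in the 3′ UTR, exon 55 (chr15:98832687-98832976). It read 59.8 and 54.5 in Sin3B+/+ and 146 and 125 in Sin3B-/- (log2 ratio 1.25). The closest start was that of the neighbouring gene Prkag1, 1310 bp away, and a separate peak at the Prkag1 promoter that also overlaps Kmt2d read 671 and 481 in Sin3B+/+ and 911 and 901 in Sin3B-/- (log2 ratio 0.65).

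The paralogous acetyltransferases Ep300 and Crebbp, coactivators that acetylate histones at enhancers, had 1 peak each. The Ep300 peak covered its promoter (chr15:81584910-81585765, centre 60 bp upstream of a start) and read 449 and 311 in Sin3B+/+ and 565 and 590 in Sin3B-/- (log2 ratio 0.61). Crebbp had its peak in intron 1 (chr16:4203569-4204416) at 84.7 and 86.0 in Sin3B+/+ and 137 and 148 in Sin3B-/- (log2 ratio 0.74). Both changed no more than the table as a whole. With single libraries left out, the Ep300 ratio ranged from 0.37 to 0.89. The 9 genes of the group with no row were Kmt2a, Kmt2b, Kmt2c, Kmt2e, Men1, Setd1a, Nsd1, Kat2a and Kat6a.

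In the group of CTCF and cohesin 1 of 11 genes had a peak (9.09%, against 15.7% of protein-coding genes). This was Ctcfl, a germ-cell paralog of Ctcf, and its peak lay outside the gene. It read 225 and 188 in Sin3B+/+ and 311 and 306 in Sin3B-/-, and its log2 ratio of 0.58 was next to the lowest of the 24. No row was found for Ctcf itself, for the cohesin ring genes Rad21, Smc1a, Smc3, Stag1 and Stag2, or for the loading and release factors Nipbl, Wapl, Pds5a and Pds5b. The closest peak of the table was 7694 bp from Pds5b and 3513662 bp from Stag2.

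**Figure D3:**
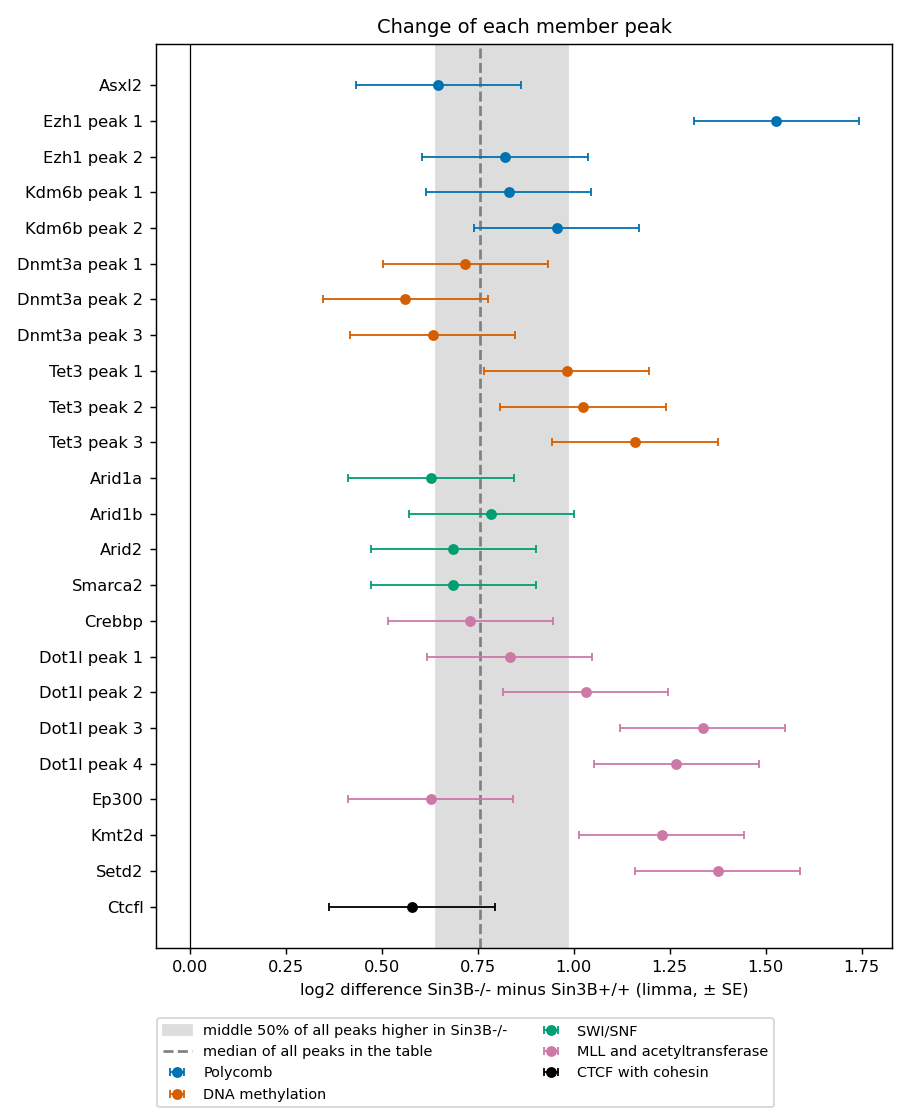
log2 difference of Sin3B-/- minus Sin3B+/+ for the 24 peaks by limma on log2(level + 1), with bars of 1 SE (0.22 for each peak), coloured by group. The dashed line is the median log2 ratio over all 5332 peaks (0.76), the grey band spans the interquartile range of the peaks that were higher in Sin3B-/-, and the bars of Ezh1 peak 1, Dot1l peaks 3 and 4, Kmt2d and Setd2 lie wholly to the right of the band.

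A change of at least 2-fold was found in 8 of the 24 peaks (33.3%), at Ezh1, Tet3, Dot1l, Kmt2d and Setd2, and in 22.8% of the table in the higher direction. The ratio just inside this limit was 1.02 and the one just outside was 0.99. The number fell to 5 when Sin3B+/+ replicate 2 was left out and came to 12 when it was Sin3B+/+ replicate 1. Low peaks made up much of this set. The 8 peaks had mean levels from 33.9 to 214, and the other 16 from 101 to 1167. In the table, 60.1% of peaks in the lowest quartile of level and 2.78% in the highest quartile were at least 2-fold higher. Among the peaks higher in Sin3B-/-, the smallest log2 ratio present was 0.73 in the lowest quartile and 0.43 in the highest, so a low peak entered the table only with a larger change. Within its own quartile of level, the Ezh1 intron peak was above 96.8% of the peaks that were higher in Sin3B-/-, the Dot1l intron peaks above 94.0% and 92.4%, the Tet3 intron 5 peak above 92.0% and the larger Kdm6b peak above 88.5%. Setd2, by contrast, was above 81.9% and the Tet3 intron 1 peak above 54.0%, and Ctcfl was near the bottom at 0.541%.

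**Figure D4:**
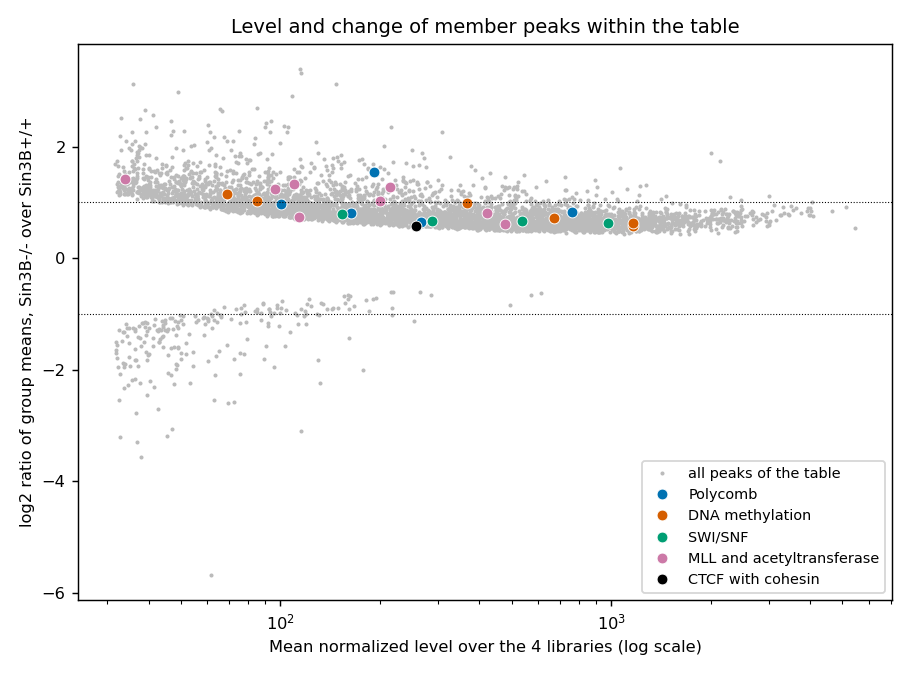
Mean normalized level over the 4 libraries (log scale, horizontal axis) against the log2 ratio of group means (vertical axis) for all 5332 peaks in grey and the 24 member peaks in colour, with dotted lines at a 2-fold change. The smallest ratios present are larger at low levels, and the Ezh1 intron 1 peak (1.54) stands clear of the bulk of peaks with a like level.

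The replicates differed in the same way at the member peaks as in the whole table. Sin3B+/+ replicate 1 was above replicate 2 in 22 of the 24 peaks, by a median of 0.29 log2 units (0.26 over the table), and Sin3B-/- replicate 2 was above replicate 1 in 17, by a median of 0.13 (0.12 over the table). Since most peaks shared these shifts, limma gave the same SE of 0.22 to each peak, and the errors of the peaks are not independent of one another. Leaving out Sin3B-/- replicate 2 brought the median log2 ratio of the 24 peaks from 0.82 to 0.74. The smallest ratio was then 0.37, at Dnmt3a intron 3. With 2 libraries a group, an exact permutation test of a single peak cannot go below p = 0.333.

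A short motif search covered the 24 windows of 300 bases on both strands, with exact matches only. The ETS motif ACCGGAAGT, the E2F motifs TTTCCCGC and TTTGGCGC and the CTCF core motifs AGGGGGCGC and AGGTGGCGC had no match in them, and in the windows of the table their shares were 0.900%, 1.24% and 2.03%. The YY1 motif AAGATGGCG, found in 1.86% of the table's windows, had 1 match, at the Ep300 promoter. It is shown on the forward strand at chr15:81585381-81585409, with the match, which reads on the reverse strand, in capitals, and was selected after the values were seen.
Ep300 start region: aaacaacagcCGCCATCTTgtttgtgtgc

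Related genes outside the 58 were examined from a list of 116 that act in the same pathways. Of these, 24 (20.7%) had 33 peaks, against 25.9% of the 58 genes and 15.7% of protein-coding genes. All 33 were called higher in Sin3B-/-, as were 95.7% of the table's peaks. The median log2 ratio of the 33 was 0.67. In the Polycomb list 4 of 28 genes had peaks, and Phc2, a subunit of repressive complex 1, changed most (306 and 245 in Sin3B+/+, 502 and 538 in Sin3B-/-, log2 ratio 0.92). In the DNA methylation list it was 3 of 21, led by Cxxc5, a CpG-binding protein (155 and 112 in Sin3B+/+, 276 and 255 in Sin3B-/-, log2 ratio 0.99). SWI/SNF contributed 5 of 20 genes, with Dpf1 first (55.4 and 39.8 in Sin3B+/+, 108 and 118 in Sin3B-/-, log2 ratio 1.25). Of 32 genes related to the MLL and acetyltransferase group, 10 had 11 peaks, with a median log2 ratio of 0.66. The largest change was at Kat5, the acetyltransferase Tip60 (39.9 and 21.3 in Sin3B+/+, 92.5 and 100 in Sin3B-/-, log2 ratio 1.65). In the list for CTCF and cohesin the number was 2 of 15, namely Sgo1 and Cdca5, the cohesin-stabilizing protein sororin, whose larger change was from 143 and 114 in Sin3B+/+ to 311 and 328 in Sin3B-/- (log2 ratio 1.32).

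Sin3b itself had no peak in the table and none overlapped the gene, so the deletion could not be checked here. Of 10 LT-HSC marker genes 5 had peaks (Slamf1, Meis1, Hoxb5, Procr and Fgd5), and of 23 markers of other blood cells 5 had peaks (Pf4, Itga2b, Klf1, Hbb-bt and Csf1r). Over all protein-coding genes the share with a peak was 15.7%. All 6 peaks of the LT-HSC markers and all 7 of the others were higher in Sin3B-/-, the direction of 95.7% of the table's peaks. Their log2 ratios ran from 0.62 to 1.07 and from 0.59 to 1.51. The summed level of the LT-HSC marker peaks reached 935 and 823 in Sin3B+/+ and 1324 and 1577 in Sin3B-/-. That of the other markers came to 1865 and 1448 in Sin3B+/+ and 2590 and 2786 in Sin3B-/-, and the part of other cells in the changes of the member peaks was not tested. No T cell, B cell or multipotent progenitor marker had a row. In pooled cells, a site open in more cells and a site opened further in each cell cannot be told apart.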

How the data were processed

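ATAC-Seq was measured in 4 libraries of sorted mouse LT-HSCs, 2 per genotype, each from 2 pooled mice and amplified for 12 PCR cycles. The authors used FastQC, trimming (Trimmomatic in the labels), Bowtie2, removal of duplicates, MACS2 and DiffBind with DESeq2, and deposited the peaks with an FDR under 0.05. Tool versions are not given in the sources used here. The deposited values per library are a normalized signal, that is reads per peak on a common scale. The authors' own columns of level, fold, p-value and FDR were not used. The total sequencing depth is unknown. Per library, at least 99.96% of the values were multiples of 1 fixed step by whole numbers (tolerance 0.0051). If 1 step is 1 read, this implies 8705855 and 4836132 reads in the table's peaks in Sin3B+/+ and 4541377 and 3102888 in Sin3B-/-. The signal summed over the table was 1986380 and 1657640 in Sin3B+/+ and 2837470 and 3102890 in Sin3B-/-. The labels name build mm9, but 5330 of 5332 gene identifiers were found in GENCODE M21 and 96.6% of the rows had its GRCm38 gene coordinates, so GRCm38 was used.

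Levels were tested with limma 3.58.1 in R on log2(level + 1), without a replicate block, over all 5332 peaks, with an adjusted p under 0.05 as threshold. The pseudocount understates the change of low peaks. All log2 ratios given as such are of group means. On simulated data with 200 peaks changed by 1 log2 unit among 5332, this fit found 93% of them. The simulated noise was independent between peaks, without library shifts shared by most peaks, and the changes went both ways. The real peaks shared such shifts and were selected beforehand, so this share does not carry over to them. The transposase was scaled to the number of cells obtained. The members, gene lists and tests were chosen with earlier results of these data known. Each member with a row was named with its values, each without a row by name, and of the related genes the peak with the largest change in each group. The sequence for CTCF with cohesin is not reported here. P-values rest on the spread between pools only. In the main fit limma shared this spread over all peaks, with the same SE of 0.22 for each. The spread between a peak's own replicates therefore did not enter its p-value.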

Additional observations from a re-analysis of the deposited data

How the results depend on the processing

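All 24 peaks remained called higher, and none lower, with a pseudocount of 5, an intensity trend and an adjusted p under 0.01. Over the table, 5103, 5103 and 4715 of the 5332 peaks were called higher in these settings. With a mean level of at least 50 it was 23 of 23 peaks, since Setd2 was left out, and 4794 of 4919 in the table. Same-numbered libraries were from different mice, and their deviations had a correlation of -0.10, so the numbers were not taken as a pairing. The replicate block left 24 peaks called, and the table had 5064 higher and 229 lower calls. Leaving out 1 library gave 5 to 12 peaks changed at least 2-fold, and all 24 stayed higher in Sin3B-/-. The median log2 ratio was then 0.74 to 1.01, the last without Sin3B+/+ replicate 1. In limma fits without 1 library the lone library of a group was assumed to vary like the other group, and their calls are not given. Centring the libraries removed the shift shared by the table by construction. It left 4 calls, no 2-fold change (0 peaks) and a median of 0.074. Among the called peaks of the table, the share called higher went from 95.7% to 62.0%. Of all peaks in the table, 7.01% were called higher after centring. The sign turned, without a call, at Asxl2 (-0.10), Dnmt3a (-0.034, -0.19 and -0.12), Arid1a (-0.12), Arid2 (-0.066), Smarca2 (-0.066), Crebbp (-0.021), Ep300 (-0.12) and Ctcfl (-0.17). Taking peaks by nearest TSS gave 15 peaks at 10 members, with 4 changed at least 2-fold. All 15 were called higher, as were 5103 of the table's 5332 peaks. Promoter peaks numbered 5 within 1000 bp of a TSS, adding Tet3 and Asxl2. In windows of 500 bases 2 peaks held a motif, the added one an E2F match at the upstream Ezh1 peak. Planned count-based tests on reads divided out of the scaled values were not run. At the lowest member peak, Setd2, the steps of the values imply 85 and 51 reads in Sin3B+/+ and 78 and 50 in Sin3B-/-, a counting error of 10.8% to 14.1% a library, if 1 step is 1 read.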

Other observations

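Further peaks of the table lay in or next to the same genes but were listed under other symbols, and they were chosen after the values were seen. Around Kdm6b, 2 more peaks accompanied the pair in its intron 1. One, listed under the antisense gene Kdm6bos and overlapping Kdm6b, read 136 and 94.6 in Sin3B+/+ and 192 and 219 in Sin3B-/- (log2 ratio 0.83). The other was listed under Dnah2, yet the nearest start, 4928 bp away, was that of Kdm6b, and it was a strong peak with 1238 and 942 in Sin3B+/+ and 2179 and 2113 in Sin3B-/- (log2 ratio 0.98). The 4 peaks at the H3K27 demethylase gene were all more open in Sin3B-/-, the direction of 95.7% of the table's peaks. None of the 4 was called after centring.

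At Kmt2e, which had no row of its own, a peak listed under 5031425E22Rik overlapped the gene and was higher than any member peak, at 2622 and 2183 in Sin3B+/+ and 3878 and 4291 in Sin3B-/- (log2 ratio 0.77). The centre was 233 bp upstream of the 5031425E22Rik start, the nearest one. The peak (chr5:23432639-23434499) also covered the start of the Kmt2e gene at 23434441. A peak listed under Orai3 was nearest to the start of Setd1a, 2467 bp upstream of it, and read 81.7 and 78.8 in Sin3B+/+ and 147 and 164 in Sin3B-/- (log2 ratio 0.96). None of these peaks was called after the libraries were centred (limma, adjusted p from 0.34 to 0.94). Members with a peak were longer, with a median gene length of 80.0 kb against 58.2 kb for the 43 without, and the part of gene length was not tested.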
